A study of Homo sapiens with 6 samples.

Results

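The BCL2 family controls whether the outer membrane of mitochondria is breached during apoptosis. The 10 genes described here were taken from the gene table by symbol, out of 16798 genes. They are the effectors BAX and BAK1, the BH3-only genes BBC3, PMAIP1, BID, BIK and BCL2L11, and the prosurvival genes BCL2, BCL2L1 and MCL1. Total RNA was sequenced from 6 samples of the COV434 line, of which 3 were controls and 3 received 4HC at 15 µM over 24 h. 4HC is an activated form of cyclophosphamide (CTX), a DNA-alkylating drug. The genotype field of the labels reads CTX for the treated samples and WT for the controls, which are otherwise described only as control, and the study names no genetic change in either group. All cells were grown in DMEM with fetal bovine serum and antibiotics. Nothing in the labels says that the 3 samples of a group came from separate cultures, so the p-values measure only the spread between these samples, which may be technical.

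COV434 is labelled as a granulosa cell line, but most of the granulosa markers were at or near 0. Of 14 markers listed, 12 were in the table, and 8 of them were under 1 TPM, a level corrected for transcript length and library size, in every sample. These 8 included FOXL2, a transcription factor that defines granulosa cells, at 0 to 0.11 TPM, and FSHR, the receptor for follicle-stimulating hormone, at 0 to 0.01 TPM. WT1 was at 103 to 135 TPM, and the markers summed to 159 to 167 TPM in control and 132 to 138 TPM in 4HC. The expected counts summed to 16133786 to 16702316 per sample. Each sample is a bulk lysate, so fewer cells that carry a transcript and less of it per cell cannot be told apart.

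In healthy cells, prosurvival proteins such as BCL2, BCL-XL (from BCL2L1) and MCL1 hold the effectors and the BH3-only proteins in check. BH3-only proteins transmit damage signals by binding the prosurvival proteins, and some of them activate BAX and BAK directly. Activated BAX and BAK form pores through which cytochrome c leaves the mitochondria, and cytochrome c then assembles the caspase-activating apoptosome with APAF1.

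BCL2L1 and MCL1 each make a long prosurvival form and a short form that lacks part of the coding sequence and promotes death. The exon junctions that tell these forms apart are shown because transcript counts of these forms are given later. Each line holds the last 15 bases of the preceding exon in lower case and the first 15 bases of the shared last exon in capitals, read 5′ to 3′ from GRCh38 with the exons of GENCODE 29, both genes lying on the minus strand.
BCL2L1 long: gagaacggcggctggGATACTTTTGTGGAA
BCL2L1 short: cagagctttgaacagGATACTTTTGTGGAA
MCL1 long: aaacaaagaggctggGATGGGTTTGTGGAG
MCL1 short: agacggccttccaagGATGGGTTTGTGGAG
In both genes the bases of the last exon are the same for the long and the short form, and the bases before them differ. The short BCL2L1 form (Bcl-xS) uses an earlier end of the coding exon and lacks the 189 bases at chr20:31721655-31721843, which shortens its coding sequence from 699 to 510 bases. The short MCL1 form skips the whole exon of 248 bases at chr1:150578244-150578491, and its coding sequence is 813 bases against 1050.

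Promoter windows of RefSeq (GRCh38.p14), from 250 bases before to 50 after a start site, were at hand for 8 of the 10 genes, in 13 windows. BIK and MCL1 had none. The BAX window held the 6 bases CACGTG, which reads the same on both strands, at 4 places. At least 1 CACGTG was present in 7.26% of all 35116 windows and at least 4 in 0.0142% (5 windows), and CACGTG was chosen for counting after the BAX sequence had been seen. The BBC3 window and 2 of the BID windows held 1 each. The 250 bases before the start site are printed for BAX, an effector that rose, with CACGTG in capitals.
BAX, plus strand, chr19:48954625-48954874: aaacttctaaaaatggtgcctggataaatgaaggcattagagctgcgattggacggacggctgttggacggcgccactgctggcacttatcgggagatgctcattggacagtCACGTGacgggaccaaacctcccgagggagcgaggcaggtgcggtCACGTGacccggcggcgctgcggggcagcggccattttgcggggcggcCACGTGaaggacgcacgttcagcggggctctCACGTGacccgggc
The 4 matches in BAX start at positions -138, -93, -45 and -14 from the start site. A match in these windows is a description of the letters and not of a bound site, and sites outside the windows were not searched.

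After 4HC, 4 of the 10 genes rose and none was called lower. The effector BAX rose by 0.60 on the log2 scale, and the BH3-only genes BBC3, PMAIP1 and BIK rose by 0.77, 1.12 and 1.28. The other effector, BAK1, the BH3-only genes BID and BCL2L11, and the prosurvival genes BCL2L1 and MCL1 did not pass the test, which was edgeR's quasi-likelihood test with Benjamini-Hochberg adjustment over 12368 genes and a threshold of 0.05. BCL2 had too few counts to be tested. Of all genes tested, 36.4% passed, 19.2% higher and 17.1% lower in 4HC, so that a call alone was common. By role, 1 of 2 effectors, 3 of 5 BH3-only genes and 0 of the 2 tested prosurvival genes passed. The median log2 fold change was 0.60 for the 7 effector and BH3-only genes and -0.08 for the 2 tested prosurvival genes, against 0.0047 for all genes tested. DESeq2 likewise called 0 of the 10 genes lower, and 1 gene was lower at an unadjusted p under 0.05 with each tool, MCL1 with edgeR. Where at least a doubling or halving and an unadjusted p under 0.05 were asked for, 2 genes passed, PMAIP1 and BIK, both higher, against 1.15% of all genes tested (1.02% higher). In 6 of the 9 tested genes all 4HC samples lay above all controls, and in 0 below. Over all genes tested the groups did not overlap in 45.3%, with 4HC above in 23.4% and below in 21.9%. BIK is included in the 4 of 10, the 3 of 5, the median of 0.60, the 2 genes and the 6 of 9. It reached the test only through its 4HC group, where it was high, so it cannot count towards a difference from all genes.

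**Figure D1:**
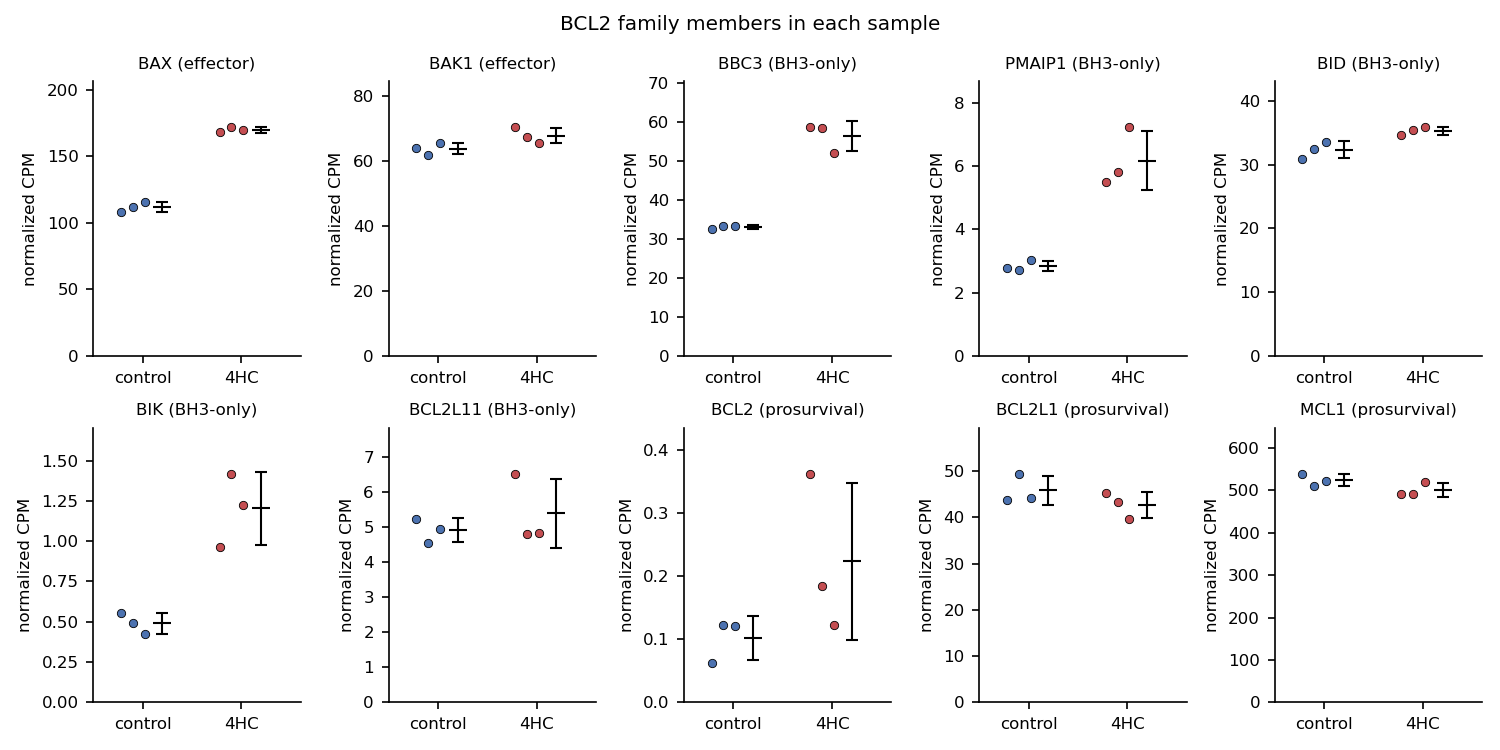
Normalized CPM (counts scaled to 1e+06 per library) of the 10 BCL2 family genes in each of the 3 control (blue) and 3 4HC (red) samples, 1 panel per gene, each with its own axis from 0. Bars give the mean and SD. The 4HC samples of BAX, BBC3, PMAIP1 and BIK stand clear of the controls, while those of BCL2L11, BCL2, BCL2L1 and MCL1 overlap them.

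BAX, whose protein moves from the cytosol into the mitochondrial membrane when activated, was the most abundant pro-apoptotic gene. Its normalized CPM (counts scaled to 1e+06 per library, after TMM adjustment) was 108, 112 and 116 in the control samples and 168, 172 and 169 in the 4HC samples. All 4HC samples lay above all controls, by far more than the spread within either group. The mean rose from 112 ± 3.84 to 170 ± 1.93 (SD, n = 3), a fold of 1.51 (log2 fold change 0.60, 95% interval 0.52 to 0.68) with an adjusted p of 1.32e-18 by edgeR. On the log2 scale 3.55% of all genes tested had a larger rise. The deposited gene table places BAX at chr19:48954825-48962632 of GRCh38, as it does the genes whose positions follow.

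BAK1, the second effector, normally sits in the mitochondrial membrane. Its normalized CPM was 63.8, 62.0 and 65.5 in control and 70.4, 67.5 and 65.6 in 4HC. The groups did not overlap on this scale, but the lowest 4HC sample and the highest control differed by little, and in TPM they overlapped. The log2 fold change of 0.09 had a 95% interval of -0.01 to 0.18 and an adjusted p of 0.141 by edgeR. The interval leaves room for a rise of up to 1.14-fold, below the 1.44 of the lower bound of BAX.

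BBC3 (PUMA), at chr19:47220822-47232998, binds all the main prosurvival proteins. It was at 32.5, 33.2 and 33.2 normalized CPM in control and at 58.6, 58.4 and 51.9 in 4HC. The 3 controls were nearly equal, and every 4HC sample was well above them. BBC3 rose 1.71-fold (95% interval 1.58 to 1.84, adjusted p = 1.21e-16 by edgeR). By the deposited coordinates it overlaps CCDC9, and no source used here says that the counting used strand, so reads where they overlap may belong to either gene. The BBC3 counts were whole in every sample.

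PMAIP1 (NOXA), at chr18:59899996-59904305, acts mainly on MCL1. Its normalized CPM was low, at 2.77, 2.71 and 3.02 in control and 5.49, 5.80 and 7.22 in 4HC, from 44 to 50 and 91 to 118 counts. The lowest 4HC sample was still above the highest control, and the third 4HC sample was the highest of all. PMAIP1 rose 2.17-fold (95% interval 1.75 to 2.71, adjusted p = 7.41e-08 by edgeR).

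BIK, at chr22:43110750-43129712, encodes a BH3-only protein of the endoplasmic reticulum. It had the largest fitted change of the 9 tested genes and the fewest counts. There were 9, 8 and 7 counts in control and 16, 23 and 20 in 4HC. No 4HC sample came down to the control level, although each rests on few reads. The fold was 2.43 with a wide 95% interval of 1.52 to 3.90 (adjusted p = 0.00218 by edgeR). BIK passed the filter on low counts only through the 4HC group, where it was high, so a difference was built into its being tested.

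BID, which is cleaved by caspase-8 and so links death receptors to mitochondria, was at 30.9, 32.4 and 33.6 normalized CPM in control and 34.6, 35.5 and 35.9 in 4HC. The 4HC samples all lay slightly above the controls. The log2 fold change was 0.13 (95% interval 0.0095 to 0.24), and its adjusted p of 0.0838 by edgeR did not pass. With library size as the only scaling the value was 0.15 and passed, at an adjusted p of 0.0427.

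BCL2L11 (BIM), a BH3-only protein that activates BAX directly, was at 5.24, 4.55 and 4.95 normalized CPM in control and 6.52, 4.81 and 4.84 in 4HC. The first 4HC sample was the highest, and the other two lay among the controls. The log2 fold change was 0.13 (95% interval -0.16 to 0.43, adjusted p = 0.502 by edgeR), and without the first 4HC sample it was -0.03 (adjusted p = 0.907). The interval covers changes from 0.897-fold to 1.34-fold. The deposited coordinates of BCL2L11 lie within the span they give for NDUFA10. That span also overlaps HTRA2, at chr2:74529405, and CFLAR, at chr2:201116164, far apart on the chromosome. The overlap is therefore doubtful, and the BCL2L11 counts were whole in every sample.

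**Figure D2:**
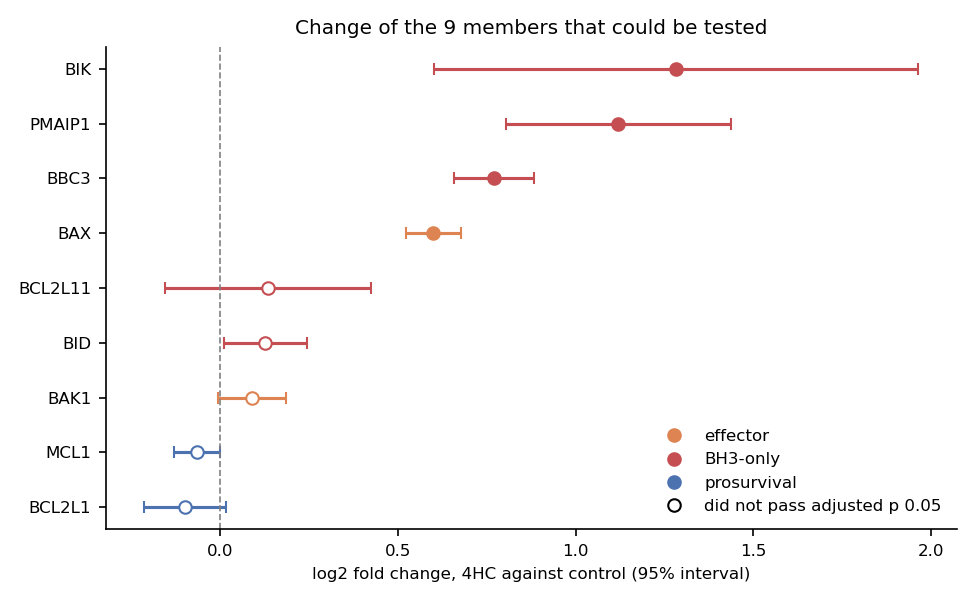
Log2 fold change of 4HC against control for the 9 tested genes, with 95% intervals (horizontal axis), coloured by role. Filled points passed the adjusted p of 0.05. BAX, BBC3, PMAIP1 and BIK lie to the right of 0, and the intervals of BAK1, BCL2L11 and BCL2L1 cross 0.

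Among the prosurvival genes, BCL2, the founding member of the family, was close to undetected. It had 1, 2 and 2 counts in control and 6, 3 and 2 in 4HC, or 0.03 to 0.08 and 0.07 to 0.23 TPM. The groups overlapped. With 5 counts against 11, the ratio was 2.20 with an exact 95% interval of 0.704 to 8.06 that covers counting error only, so a change of BCL2 in either direction was not detectable at this depth.

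MCL1, a short-lived prosurvival protein, dominated this group. It was at 539, 510 and 522 normalized CPM in control and 491, 491 and 518 in 4HC. The third 4HC sample lay within the control range and the other two below it. The log2 fold change was -0.07 (95% interval -0.13 to -0.0013), and its adjusted p of 0.105 by edgeR did not pass. Leaving out the second control sample or the third 4HC sample gave -0.09 each time, with adjusted p of 0.0486 and 0.0362, and MCL1 then passed. The full interval allows a fall to 0.914-fold at most.

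BCL2L1 was at 43.7, 49.4 and 44.3 normalized CPM in control and 45.2, 43.4 and 39.7 in 4HC. The groups overlapped, with the second control the highest and the third 4HC sample the lowest. Its log2 fold change was -0.10 (95% interval -0.21 to 0.02, adjusted p = 0.174 by edgeR), which leaves room for changes from 0.862-fold to 1.01-fold.

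Levels of different genes were compared as TPM. BAX was at 279 ± 11.7 TPM in control and 418 ± 5.38 in 4HC (SD, n = 3), and MCL1 at 224 ± 7.20 and 213 ± 6.76. These were far above the remaining members in both groups. BAK1 followed at 51.1 to 54.7 TPM in control and 54.2 to 58.5 in 4HC. In control, BBC3 (38.4 ± 1.05 TPM), BCL2L1 (32.4 ± 1.92) and BID (27.8 ± 1.17) came next, and the ranges of these genes over the 3 control samples did not overlap. In 4HC, BBC3 reached 65.7 ± 4.21 TPM and passed BAK1, while BID (30.0 ± 0.489) and BCL2L1 (29.9 ± 2.20) did not differ beyond their spread. PMAIP1 (2.60 ± 0.207 and 5.71 ± 0.775 TPM), BIK (1.16 ± 0.150 and 2.81 ± 0.517) and BCL2L11 (1.91 ± 0.189 and 2.06 ± 0.671) stood between 1 and 7 TPM in all samples. In 4HC the ranges of BIK and BCL2L11 overlapped, as they did not in control. BCL2 was last.

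**Figure D3:**
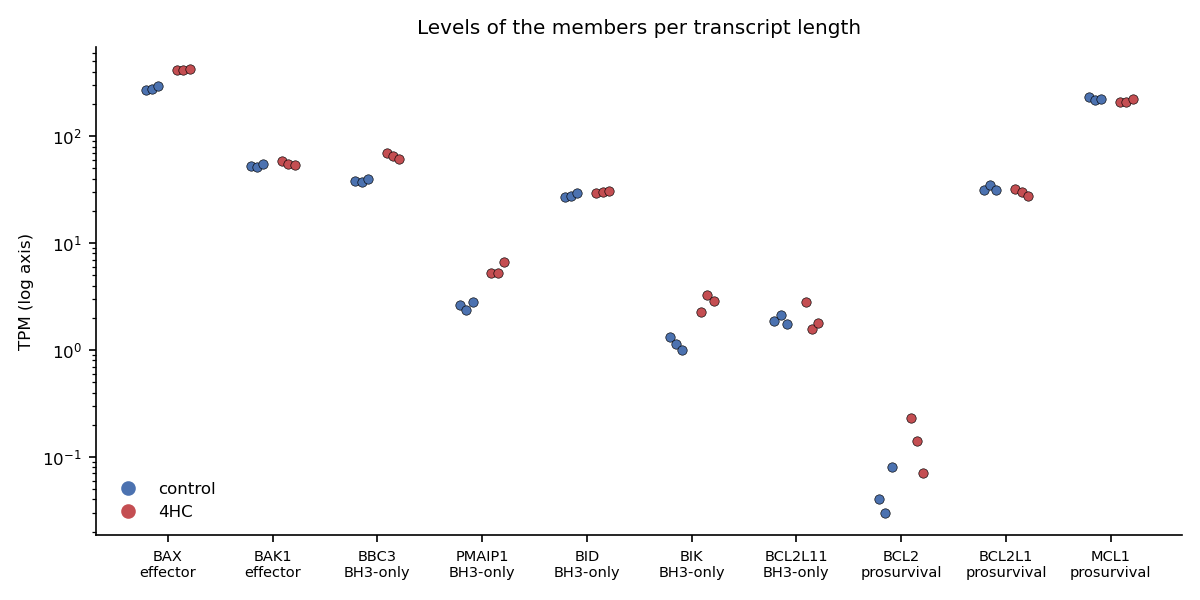
TPM of the 10 genes in each control (blue) and 4HC (red) sample, on a log axis. BAX and MCL1 are the most abundant members in both groups, and BCL2 lies at 0.03 to 0.23 TPM.

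The effector and BH3-only genes were set against the prosurvival genes in each sample. The summed TPM of the 7 pro-apoptotic genes was 393, 398 and 421 in control and 581, 581 and 581 in 4HC. For the 3 prosurvival genes the sum was 262, 251 and 256 in control and 242, 238 and 248 in 4HC. Every 4HC sample thus had a higher pro-apoptotic sum and a lower prosurvival sum than every control. The prosurvival sums differed by little between the lowest control (251) and the highest 4HC sample (248). MCL1 and BCL2L1, which make up nearly all of that sum, did not pass the test. The ratio of the sums went from 1.58 ± 0.0722 to 2.39 ± 0.0519 (SD, n = 3). BAX made up 69.1% of the pro-apoptotic sum in control and 72.1% in 4HC, and MCL1 made up 87.3% and 87.6% of the prosurvival sum, so these ratios follow mostly BAX and MCL1.

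BAX and BBC3, both called higher, were set against BCL2L1 and MCL1, which did not pass, so the rise of these ratios repeats those results. No single ratio was formed for BAK1 or BID, which were not called. BAX to BCL2L1 was 8.65, 7.99 and 9.25 in control and 12.9, 14.0 and 15.3 in 4HC, with no overlap. BBC3 to MCL1 was 0.165, 0.173 and 0.176 in control and 0.332, 0.317 and 0.278 in 4HC, again with no overlap. By contrast, BAX to BCL2 ranged from 3649 to 9224 in control and from 1794 to 6047 in 4HC, with overlap, and its denominator rests on 1 to 6 counts.

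With each gene given equal weight, the mean log2 CPM of the 7 pro-apoptotic genes went from 3.72 ± 0.02 to 4.28 ± 0.01, and that of the 3 prosurvival genes was 4.13 ± 0.09 and 4.26 ± 0.19 (SD, n = 3). Their difference was -0.41 ± 0.11 in control and 0.01 ± 0.19 in 4HC, a shift of 0.42. The nearly undetected BCL2 decided much of the prosurvival mean. Without BCL2 the shift was 0.64, and without BCL2 and BIK it was 0.55, both chosen after seeing the data. No p-value is given for these sums and means, since the genes in them were chosen.

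Single transcripts gave less certain values, because reads in exons that transcripts share had to be divided between them by estimation. Of 64 deposited transcripts of the 10 genes, 30 could be tested, and 26 of these had a mean of at least 20 expected counts in a group. Of the 30, 1 passed, higher in 4HC, against 1.29% of all 42216 transcripts tested (0.706% higher), and the groups did not overlap for 13 of the 30, against 20% of all. The 13 include the only BIK transcript, which reached the test through its 4HC group, where it was high. That transcript cannot count towards a difference from all transcripts. The one that passed was a 6-exon BAX transcript that codes for the full-length protein, with 803, 898 and 879 expected counts in control and 1211, 1427 and 1353 in 4HC. Its log2 fold change was 0.63 (adjusted p = 0.0314 by edgeR), close to the value for the gene, and the call was lost with the replicate number as a block (adjusted p = 0.110) and when any one of the 6 samples was left out (0.0550 to 0.154). With DESeq2, 6 of the transcripts passed. The share of all transcripts that passed with DESeq2 is not given here, so the 6 cannot be set beside the 1.29% of edgeR.

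The 5-exon BAX transcript, which keeps the last intron, had 563, 540 and 546 expected counts in control and 878, 872 and 688 in 4HC (log2 fold change 0.56, adjusted p = 0.0806 by edgeR and 4.35e-05 by DESeq2). It passed with edgeR when the third 4HC sample was left out (adjusted p = 0.0342). Another RefSeq transcript is linked to the same 6-exon model as the one above, and reads were divided between them. Together the 2 entries held 58.7% ± 1.71 of the BAX counts in control and 59.8% ± 1.99 in 4HC, and the 5-exon form 30.1% and 29.2%. In both forms the shares differed by less than the larger SD of the 2 groups. BBC3 has transcripts with separate first exons. The 4-exon form, first exon at chr19:47230929-47231194, had 271, 359 and 278 expected counts in control and 461, 579 and 407 in 4HC. The 3-exon form, first exon at chr19:47232515-47232766, had 247, 143 and 273 in control and 445, 334 and 441 in 4HC. Both BBC3 forms were higher in every 4HC sample than in every control, with log2 fold changes of 0.67 and 0.88, which did not pass with edgeR (adjusted p = 0.196 and 0.255) and passed with DESeq2 (adjusted p = 0.00711 and 0.00885). The main PMAIP1 transcript had 43.5, 37.4 and 45.4 expected counts in control and 84.0, 86.5 and 107 in 4HC, with a log2 fold change of 1.14 (adjusted p = 0.124 by edgeR and 0.0385 by DESeq2).

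For BCL2L1, whose gene total did not pass, 6 of the tested transcripts code for the long form and 1 for the short form. The 6 long transcripts summed to 630, 738 and 688 expected counts in control and 706, 679 and 621 in 4HC. The groups overlapped, and these sums were not tested. The short form, whose junction is printed above, had 54.5, 65.1 and 45.6 expected counts in control and 27.8, 23.8 and 26.8 in 4HC (log2 fold change -1.06, 95% interval -1.89 to -0.23, adjusted p = 0.286 by edgeR). Every 4HC sample was below every control. Its share of the BCL2L1 counts was 7.33% ± 0.989 in control and 3.74% ± 0.382 in 4HC. The edgeR test passed none of the 7 transcripts.

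Among the long BCL2L1 transcripts, the 4 entries linked to a 2-exon model held most of the counts. Their share of the gene was 66.0% ± 6.07 in control and 54.5% ± 5.89 in 4HC. The 2 entries linked to a 3-exon model held 25.5% ± 3.61 in control and 41.1% ± 7.07 in 4HC. One of these 2 had 39.8, 21.6 and 34.1 expected counts in control and 98.2, 91.2 and 100 in 4HC (log2 fold change 1.58, adjusted p = 0.0974 by edgeR). It passed with DESeq2 (adjusted p = 0.00400) and with a minimum of 10 counts in every sample (adjusted p = 0.0328). The other had 159 ± 31.0 expected counts in control and 190 ± 44.2 in 4HC. Of the 4 linked to the 2-exon model, 3 had lower means in 4HC, with log2 fold changes of -0.42, -0.56 and -0.37 (adjusted p = 0.854, 0.774 and 0.948 by edgeR). The fourth had 26.5 ± 9.38 expected counts in control and 40.9 ± 26.2 in 4HC (log2 fold change 0.62, adjusted p = 0.958 by edgeR). All 6 are linked to models with the long coding sequence, and the division of reads between them is uncertain.

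MCL1 counts were nearly all given to the long form, 97.9% ± 0.486 in control and 98.4% ± 0.488 in 4HC. The short, pro-apoptotic MCL1 form had 223, 185 and 138 expected counts in control and 102, 159 and 124 in 4HC. Its groups overlapped, and the log2 fold change of -0.51 had a 95% interval of -1.16 to 0.15 (adjusted p = 0.648 by edgeR). For BID, the 6-exon form had 309, 375 and 363 expected counts in control and 409, 414 and 403 in 4HC (log2 fold change 0.23, adjusted p = 0.435 by edgeR). A 5-exon BID form went from 26.3 ± 9.62 to 48.7 ± 1.41 (0.88, adjusted p = 0.529 by edgeR). Another 5-exon form and the 4-exon form had lower means in 4HC (-0.42 and -0.26, adjusted p = 0.947 and 0.858 by edgeR). BAK1 counts went mostly to its 6-exon transcript, at 96.8% in control and 96.4% in 4HC. Of the 20 BCL2L11 transcripts 1 could be tested, with 0 to 20.8 expected counts in control and 10.1 to 30.7 in 4HC, and of the 4 BCL2 transcripts none.

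Other genes of the pathway were listed by role and read from the same test. Of all genes tested, 36.4% passed, 19.2% higher and 17.1% lower, and the counts below are to be read beside these shares. The share called was 45.5% in the further family genes and 62.5% in the genes at or after the mitochondrial membrane. It was 50% in the death receptor genes and 63.2% in the regulators. No list was tested as a set. Of 15 further genes of the BCL2 family and its BNIP relatives, 11 were tested, 1 higher and 4 lower in 4HC, with a median log2 fold change of -0.0084. BCL2L12 rose by 0.27 (SE 0.05). HRK, a BH3-only gene best known from neurons, fell by 0.36 (SE 0.11), and BNIP3, a mitophagy receptor, by 0.16 (SE 0.06). BCL2L13 fell by 0.14 and the prosurvival gene BCL2L2 by 0.13 (SE 0.05 each). BCL2L12 overlaps IRF3 and BCL2L2 overlaps the readthrough gene BCL2L2-PABPN1, and the counts of both were fractional in every sample. Of the genes named in the lists below, APAF1, CFLAR, MDM2, FOXO3 and ATF4 also had fractional counts in every sample, and FAS and HTRA2 in most. APAF1, MDM2, FAS and HTRA2 likewise overlap other genes by the deposited coordinates. BNIP3 overlapped between the groups, and its value ran from -0.08 (adjusted p = 0.249) without the first 4HC sample to -0.29 without the third. Its call was also lost without the second control or the second 4HC sample, with DESeq2 (adjusted p = 0.394) and with limma on TPM or FPKM. HRK and BCL2L2 did not pass with DESeq2 (adjusted p = 0.0504 and 0.0563). Leaving out the second control, the third control or the first 4HC sample ended the call of BCL2L13, with adjusted p up to 0.0835, and leaving out the first control or the first or second 4HC sample that of BCL2L2, up to 0.0701. The BH3-only genes BAD and BMF and the effector-like BOK were not called, at 0.07, 0.06 and -0.07 (95% intervals -0.07 to 0.20, -0.16 to 0.28 and -0.17 to 0.03).

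Of 17 genes that act at or after the mitochondrial membrane, 16 were tested, 6 higher and 4 lower, with a median of 0.02. APAF1, the core of the apoptosome, rose by 0.56 (SE 0.05) and the executioner caspase CASP6 by 0.40 (SE 0.10). HTRA2, a released inhibitor of IAP proteins, rose by 0.18 (SE 0.06), a call lost with DESeq2 (adjusted p = 0.126) and without the first control, the third control or the second 4HC sample (0.0918, 0.113 and 0.117). CYCS, which encodes cytochrome c, fell by 0.20 (SE 0.04) and the outer membrane channel VDAC1 by 0.19 (SE 0.03).

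All 8 genes of the route from death receptors to BID were tested, and 4 were higher and none lower with edgeR or DESeq2 (0 also at an unadjusted p under 0.05). With edgeR 36.4% of all genes tested passed, 19.2% higher, and whether this short list differs from that was not tested. FAS rose by 0.54, TNFRSF10B by 0.53 and TNFRSF10A by 0.48 (SE 0.05, 0.03 and 0.06), all of them receptors that can start apoptosis. CFLAR, an inhibitor of caspase-8 at these receptors, rose by 0.29 (SE 0.04). CASP8 itself, the protease that cleaves BID, was at -0.0036 (95% interval -0.16 to 0.15).

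Of 19 regulators of the family, all tested, 6 were higher and 6 lower. MDM2, a ubiquitin ligase, rose by 0.98 (SE 0.03), and FBXW7, a ubiquitin ligase receptor that acts on MCL1, by 0.67 (SE 0.06). HUWE1 and BTRC, also listed as ubiquitin ligases of MCL1, fell by 0.19 and 0.15, and USP9X fell by 0.24 (SE 0.03, 0.05 and 0.03). FOXO1 rose by 0.54 (SE 0.21) and SIVA1 by 0.31 (SE 0.05), while JUN fell by 0.29 (SE 0.10). DDIT3 and E2F1 rose by 0.25 and 0.21 (SE 0.07 and 0.05), and FOXO3 and ATF4 fell by 0.23 and 0.26 (SE 0.06 and 0.03). With DESeq2 the list gave 9 calls in place of 12. The calls of FOXO1 and JUN were lost with DESeq2 (adjusted p = 0.180 and 0.0890) and with the replicate number as a block (0.0503 and 0.0567). They were also lost without the second control or the second 4HC sample, and that of FOXO1 without the third control and that of JUN without the first.

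**Figure D4:**
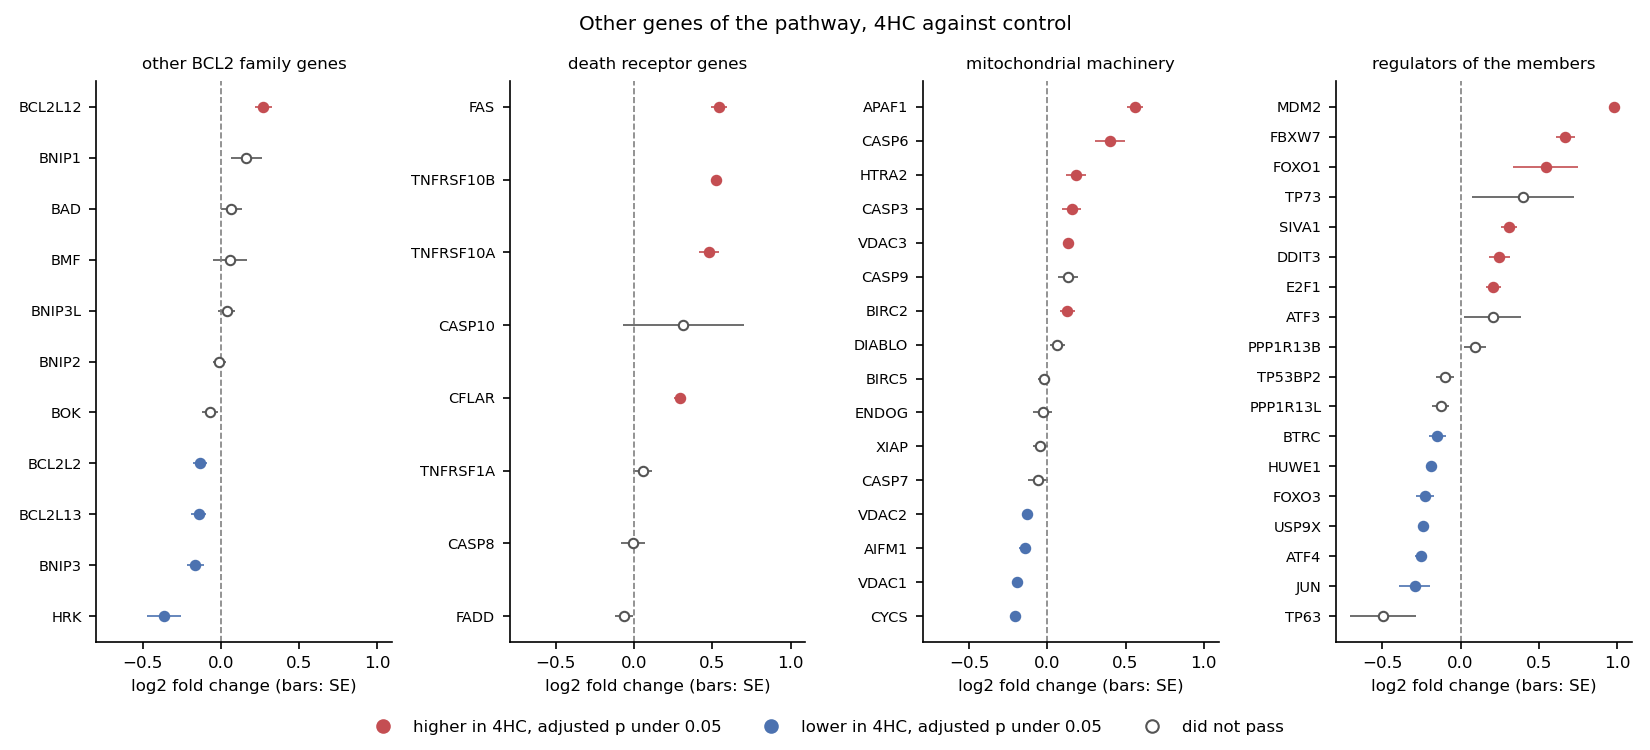
Log2 fold change of 4HC against control (horizontal axis, bars for SE) of tested genes of 4 lists (18 of the 19 regulators), sorted within each list. Red points were higher and blue points lower at an adjusted p under 0.05, and open points did not pass. The death receptor list has 4 higher genes and no lower gene, and the other lists have genes on both sides. Of all genes tested, 36.4% passed.

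Genes whose profile over the 6 samples was most like that of BBC3 were looked up among 10273 genes with a mean of at least 5 CPM. These were PHLDA3, GNA11 and VPS18, with Pearson correlations of their log2 CPM with BBC3 of 0.9995, 0.9990 and 0.9984. PHLDA3 was higher in 4HC by 0.91, near the 0.77 of BBC3, while GNA11 and VPS18 moved by 0.17 and 0.27, so the likeness is one of shape and not of size. For BCL2 they were SMPD4, LRP5 and FOXK1, at 0.993, 0.987 and 0.983, against a profile of 1 to 6 counts. The samples share their 2 groups, and the correlations are a description over 6 points.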

How the data were processed

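RNA-seq of 6 COV434 samples was analysed. Per the labels, reads were filtered with SOAPnuke, and the submitters' processing notes name HISAT2, Bowtie2, RSEM 1.3.1, DESeq2 1.4.5 and GRCh38.p13, without their roles. The authors deposited an expected count per gene and per transcript, of which 85.5% of the gene values were whole. The deposited TPM and FPKM values were scaled by the authors to length and library. Columns of the authors' own comparison (fold changes, p-values and q-values) and a second gene table with the same values were not used.

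Expected counts were rounded and tested with edgeR 4.0.16 (R 4.3.3; TMM, filterByExpr, quasi-likelihood test, condition as the only term), for genes and, in a separate fit, for transcripts. The gene table gave the background, and p-values were adjusted over all features tested. CPM are TMM-normalized, and log2 CPM used a prior count of 2. The alternatives were DESeq2 1.42.0, its size factors, library size only, no filter, at least 10 counts in every sample, a replicate block, limma 3.58.1 on log2 TPM or FPKM with a pseudocount of 1 or 0.1 (TPM), a fold threshold of 2 and leaving out each sample. At this depth 3 counts correspond to 0.180 to 0.186 CPM. With 3 samples against 3, a permutation test of one value cannot go below p = 0.1, and none was used. Replicates of a group differed by more than sampling noise (chi-square per gene 1.70 to 2.46). The spread beyond that noise, as estimated by edgeR (biological coefficient of variation), was small at 0.028. Neither value tells whether the replicates were separate cultures.

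On simulated counts of 12296 genes with 200 changed, 97% of changes of 0.5 (log2) and 100% of changes of 1.5 were recovered, and on 43034 transcripts 36% and 100%. The changed features were drawn only from those above a minimum control mean, and the spread between replicates was set in advance. PMAIP1, BIK, BCL2 and many transcripts of the members lay below that minimum, so these recovered shares do not apply to them. The members and lists were chosen with earlier results of these data known. Named were all members, up to 5 called genes with the largest change per list, and the 3 genes most like BBC3 and BCL2. Granulosa markers at or near 0 were also named. Of the transcripts with a mean of at least 20 counts in a group, not all are given. BAD, BMF, BOK, CASP8, HUWE1, BTRC, USP9X, DDIT3, E2F1, FOXO3 and ATF4 were named after values were seen. Transcripts of a shared model or coding form were also summed after values were seen. BCL2L10 was not analysed here, and 1 regulator is counted in its list but not reported here. Python 3.11.15, pandas 2.3.3 and matplotlib 3.10.9 read the files and drew the figures.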

Additional observations from a re-analysis of the deposited data

How the results depend on the processing

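The calls of BAX, BBC3 and PMAIP1 held, in the same direction, under every alternative that kept the threshold on the adjusted p, and that of BIK under every one that tested it (it had too few counts for the minimum of 10). Where a 2-fold change and an unadjusted p under 0.05 were required, calls numbered 126 higher and 16 lower over all genes (main test 2379 and 2118), 2 for the BCL2 family genes, 3 for their transcripts and 0 in each of the other 4 lists. Limma on log2(FPKM + 1) called 1343 genes lower. The further BCL2 family genes gave 2 calls with DESeq2 and 2 with FPKM, in place of 5. The transcripts gave 6 calls with DESeq2 and 4 with a minimum of 10 counts, in place of 1. For these settings and the 2-fold threshold no share over all transcripts is given, so the transcript counts have no background. The balance of pro-apoptotic and prosurvival genes shifted by 0.64 without BCL2, in place of 0.42.

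Leaving out each sample in turn gave 4 to 4 higher and 0 to 1 lower calls for the BCL2 family genes, 2 to 5 for the further family genes, 7 to 10 for the mitochondrial machinery, 10 to 12 for the regulators and 0 to 1 for the transcripts, where the 1 (without the third 4HC sample) was the 5-exon BAX form and not the one called with all samples. The further family genes gave 3 calls without the second control, 2 without the first 4HC sample and 3 without the second. The value of BCL2L11 lay between -0.032, without the first 4HC sample (its highest), and 0.21. The causes of the other changes were not tested.

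Same-numbered samples did not deviate together (correlations 0.0087 to 0.069), so no pairing by number was visible in the values. Whether same-numbered samples were handled together cannot be told from this. With the replicate number as a block, 0 transcripts of the members were called, FOXO1 and JUN lost their calls, and no member gene changed its call. Depth limited BCL2, BIK and the transcripts.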
